A study of Mus musculus with 4 samples.

Results

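The axonemal genes described here were the 70 genes, of 25265 in the count table, whose symbols begin with Dnah, Dnal, Dnaaf, Cfap, Rsph, Drc or Tekt followed by the family's own numbering. Pseudogene symbols were to be dropped, and 0 were found. The rule also asked for symbols beginning with Dnai, and 0 genes matched it. The table still used the older names Dnaic1, Dnaic2, Wdr63 and Wdr78 for those intermediate chain genes. Of the 70, 68 were protein-coding and tested, Dnah2os was a noncoding transcript antisense to Dnah2, and Rsph4a was too low to test. RNA came from whole testes of C57BL/6 mice at postnatal day 56, with 2 control libraries and 2 libraries from Ythdf2-vKO mice, a line whose Ythdf2 mutation is described as specific to germ cells. Neither the Cre driver nor the alleles of the controls are given in the sources used here. Ribosomal RNA was depleted and libraries kept strand information. The labels do not say that libraries of a group came from separate animals, so the p-values below measure the spread between libraries, which may be technical.

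Ythdf2, a reader of N6-methyladenosine on RNA, was checked against the labels. The controls had 1193 and 1604 counts of it, and the Ythdf2-vKO libraries 1774 and 1807 (log2 fold change 0.35, SE 0.13; adjusted p = 0.238, edgeR's quasi-likelihood test). It was thus not lower in the libraries that carry the mutant label, and every direction below refers to libraries by their labels only. Total counts ran from 24862518 to 29561182 per library, and the 70 genes took 1.34% to 1.43% of them. Replicates differed from each other by a common biological coefficient of variation of 13.5%.

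The axoneme is the microtubule core of cilia and of the sperm tail. Outer and inner rows of dynein motors, each built on a very large heavy chain, slide its doublet microtubules, while radial spokes and the nexin-dynein regulatory complex pass signals between the central pair and the motors, and tektins line the inside of the doublets. Cytoplasmic assembly factors fold the motors before they reach the tail, and in the testis most of these genes are transcribed in meiotic cells and spermatids as the sperm tail is built.

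With the label groups alone in the model, no axonemal gene passed the test. With a threshold of 0.05 on the Benjamini-Hochberg adjusted p of edgeR's quasi-likelihood test, 0 of the 69 tested members were called. The background was 0.393% of 21132 genes, of which 59 were higher (0.279%) and 24 lower (0.114%) in the Ythdf2-vKO libraries. Before adjustment 13 members had a p under 0.05, 12 of them lower and 1 higher, where 14.1% of all genes had such a p (6.47% lower and 7.65% higher). DESeq2's Wald test also called 0 members. The authors' deposited table holds the same test with the same member values, so it is not a separate result. Its adjusted p was under 0.05 for 0 members and for 1.32% of 16448 genes.

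The members' differences were small and mostly of one sign. The log2 fold change was below 0 in 56 of the 69 tested members and above 0 in 13, while 49.7% of all genes, and 53.8% of genes of at least 10 CPM, were below 0. The members' median was -0.16 and that of all genes 0.0027. Summed over the 70 genes, expression in CPM (counts scaled to library size with edgeR's TMM factors) was 15251 and 13846 in the controls, against 13222 and 13032 in the Ythdf2-vKO libraries. Both Ythdf2-vKO libraries lay below both controls in 33 tested members, against 22.6% of all genes, and above both in 2 (Dnaaf3 and Cfap77), against 22.7%. Among genes of at least 10 CPM these shares were 27.4% and 21%. Scaled by library totals alone, the separated members were 21 lower and 4 higher (15.8% and 28.9% of all genes), with a median of -0.10 against 0.067 for all genes. Of the 69 members, 37 differed less between groups than the control replicates differed from each other. The same held for 11612 of all 21132 genes tested, so it is not particular to the members.

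**Figure D1:**
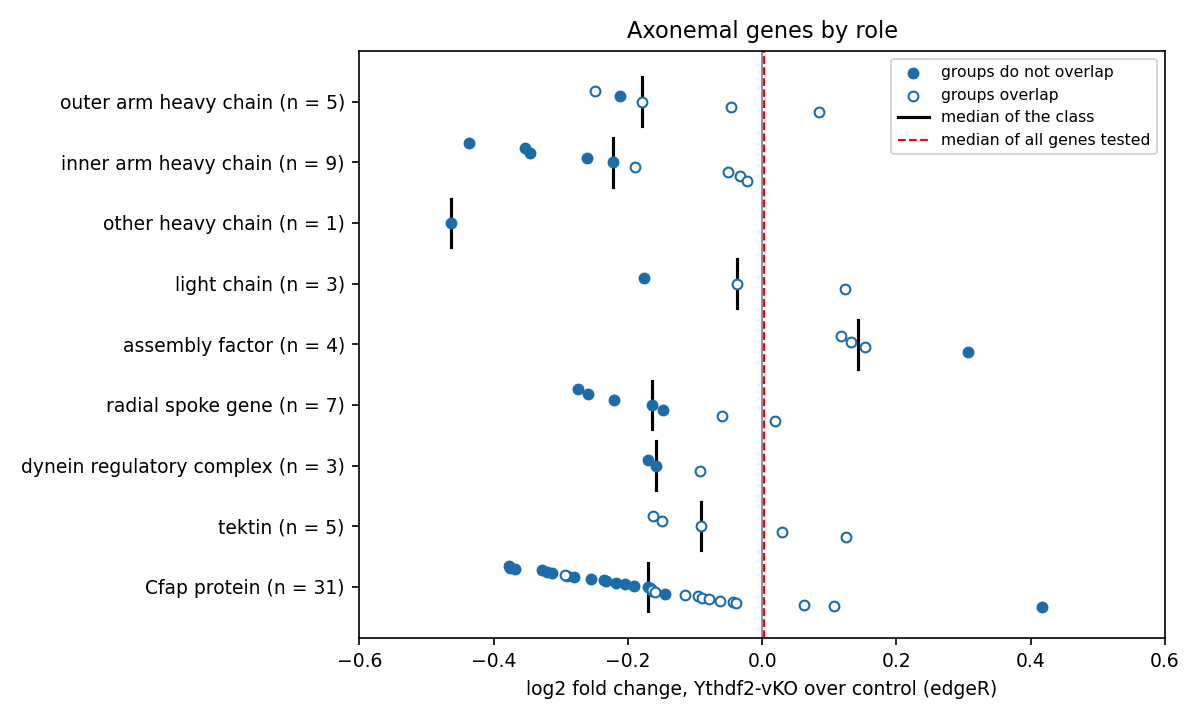
Log2 fold change of each tested member, Ythdf2-vKO over control (horizontal axis), by role (vertical axis); filled points are members whose label groups do not overlap, black bars are class medians, and the dashed line is the median of all genes tested. The 9 inner arm heavy chains all lie below 0 and the 4 assembly factors named Dnaaf all lie above it. The antisense transcript and Rsph4a are not drawn.

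The outer arm heavy chains split by level into those of the sperm tail and those known from airway cilia. Dnah8, a sperm outer arm heavy chain and among the 5 most counted members, was at 1138 and 770 CPM in the controls and 926 and 680 CPM in the Ythdf2-vKO libraries (log2 fold change -0.25, SE 0.20; adjusted p = 0.645, edgeR's quasi-likelihood test). Dnah17, its partner in sperm outer arms, was at 510 and 264 CPM and at 456 and 365 CPM (log2 fold change 0.08, SE 0.32; adjusted p = 0.947 by edgeR's quasi-likelihood test). In both genes the label groups overlapped and the control replicates stood far apart. Per kilobase of the longest annotated transcript, Dnah8 averaged 52.7 and Dnah17 26.6 CPM per kb over the 4 libraries, and each Dnah8 library lay above each Dnah17 library. Dnah9, Dnah5 and Dnah11, the outer arm heavy chains of motile cilia elsewhere in the body, were far lower, at averages of 0.795, 0.292 and 0.138 CPM per kb, in that order. Their log2 fold changes were -0.05, -0.18 and -0.21, with SE of 0.18, 0.25 and 0.32.

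The inner arm heavy chains lay close together in level and all 9 were lower in the Ythdf2-vKO libraries, by a median log2 fold change of -0.22, with 0 called. Their averages spanned 8.15 CPM per kb (Dnah10) to 14.6 CPM per kb (Dnah1), and the libraries of neighbouring genes overlapped. The class median was -0.10 without control replicate 1 and -0.36 without control replicate 2. Without control replicate 1, Dnah10 (0.34), Dnah1 (0.20), Dnah2 (0.15) and Dnah3 (0.07) were above 0, and the other inner arm heavy chains below it. Dnah12 was at 183 and 165 CPM in the controls and at 137 and 120 CPM in the Ythdf2-vKO libraries (log2 fold change -0.44, SE 0.13; adjusted p = 0.159, edgeR's quasi-likelihood test). Its groups were separated, as were those of Dnah6 and of Dnah7a, Dnah7b and Dnah7c. At the other end, Dnah1, which is required for the sperm tail, was at 218 and 161 CPM and at 208 and 165 CPM (log2 fold change -0.02, SE 0.16), and its groups overlapped. Dnah2 was at 245 and 159 CPM and at 198 and 156 CPM (log2 fold change -0.19, SE 0.20), also with overlap. Its antisense transcript Dnah2os had 2 and 19 counts in the controls and 9 and 16 in the Ythdf2-vKO libraries, too few to read a direction from.

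The 3 Dnah7 copies on chromosome 1 had log2 fold changes of -0.35, -0.35 and -0.26. Their transcripts are 96.9% to 97.3% identical over nearly their whole length, so reads may have been split between them and their separate values are uncertain. Summed over the copies, expression was 504 and 463 CPM in the controls and 403 and 371 CPM in the Ythdf2-vKO libraries, so the sums did not overlap either.

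Dnah14, a heavy chain gene not placed in either arm here, had the largest difference and the smallest adjusted p of the members. It was at 230 and 207 CPM in the controls and at 167 and 150 CPM in the Ythdf2-vKO libraries. The log2 fold change was -0.46 (SE 0.12; adjusted p = 0.133, edgeR's quasi-likelihood test), and the authors' deposited table gave an adjusted p of 0.0768. Both Ythdf2-vKO libraries lay below both controls. The gene lies at chr1:181576559-181815774 on the plus strand of GRCm38 (GENCODE M21).

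**Figure D2:**
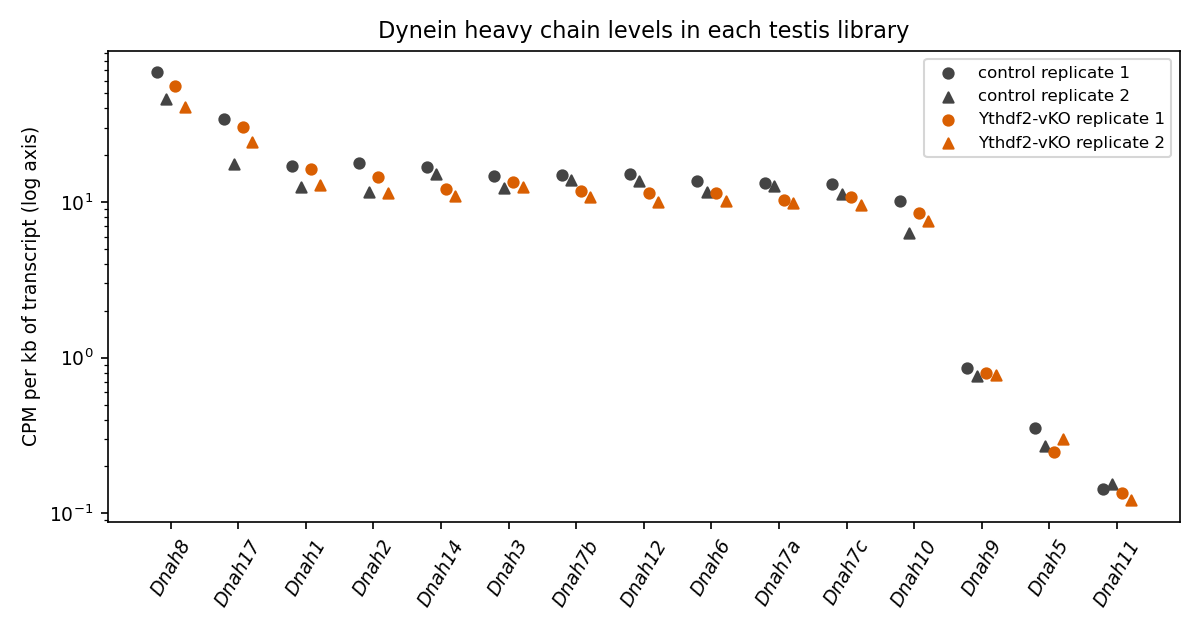
Level of the 15 dynein heavy chains in each library, in CPM per kb of the longest annotated transcript on a log axis, ordered by mean; circles are replicate 1, triangles replicate 2, dark points control and orange points Ythdf2-vKO. Dnah8 and Dnah17 lie highest and Dnah9, Dnah5 and Dnah11 lie below 1 CPM per kb.

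Of the other dynein subunits, Dnali1, a light intermediate chain of inner arms, was at 226 and 224 CPM in the controls and at 191 and 207 CPM in the Ythdf2-vKO libraries (log2 fold change -0.18, SE 0.12), with the groups separated. Dnal1, an outer arm light chain, was at 28.2 and 29.2 CPM and at 28.3 and 27.7 CPM (log2 fold change -0.04, SE 0.14), and Dnal4 had a log2 fold change of 0.12 (SE 0.13). Among the older-named intermediate chain genes, which are not members, Dnaic1 was at 147 and 152 CPM and at 131 and 146 CPM, and Dnaic2 was at 117 and 81.8 CPM and at 82.9 and 82.3 CPM. Wdr63 was at 128 and 138 CPM and at 99.5 and 98.7 CPM (log2 fold change -0.43, SE 0.12). Wdr78 was at 122 and 108 CPM and at 89.3 and 80.3 CPM (log2 fold change -0.44, SE 0.13). The groups of Wdr63 and Wdr78 were separated, neither gene was called, and both were added here after their values were seen.

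The 4 Dnaaf genes, whose products assemble dynein arms in the cytoplasm, were all higher in the Ythdf2-vKO libraries, by a median log2 fold change of 0.14, with 0 called. Dnaaf3 was at 113 and 82.8 CPM in the controls and at 117 and 126 CPM in the Ythdf2-vKO libraries (log2 fold change 0.31, SE 0.15; adjusted p = 0.387, edgeR's quasi-likelihood test). Its groups were separated, by a gap smaller than that between the control replicates. It overlaps Tnni3 on the same strand and Gm15873 on the other. Dnaaf1 was at 985 and 688 CPM and at 951 and 882 CPM (log2 fold change 0.13, SE 0.16). Dnaaf2 was at 32.7 and 17.8 CPM and at 32.4 and 22.3 CPM (log2 fold change 0.12, SE 0.30), and Dnaaf5 had a log2 fold change of 0.15 (SE 0.17). Dnaaf1 overlaps Taf1c on the opposite strand, and Dnaaf2 overlaps 9330151L19Rik on the opposite strand. With both strands searched, their transcripts matched over 584 and 703 bases, in that order. Some of these reads may be ambiguous if counting ignored strand, and the strand setting is not given. Dnaaf2 also overlaps Gm49383 on the same strand. In all 4 genes control replicate 1 was above control replicate 2. The class median was 0.47 without control replicate 1, -0.09 without control replicate 2 and -0.0036 with an offset for transcript GC content. Cfap298 and Cfap300, also known as dynein assembly factors but named with the Cfap family, were on the other side, with log2 fold changes of -0.19 (SE 0.12) and -0.28 (SE 0.13). Assembly factors outside the members were lower too: Spag1 (-0.43, SE 0.13), Wdr92 (-0.31, SE 0.17), Ttc12 (-0.28, SE 0.12), Lrrc6 (-0.18, SE 0.13), Zmynd10 (-0.15, SE 0.12) and Pih1d3 (-0.10, SE 0.18). They were picked after their values were seen, and the groups of Lrrc6 and Pih1d3 overlapped. The higher direction was seen in the 4 Dnaaf symbols with all libraries and no GC offset. Whether it differs from that of other assembly factors was not tested.

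The radial spoke genes held the highest and the lowest level per length among the members. Rsph1, a spoke head protein, averaged 744 CPM per kb, the highest of the 70 genes. It was at 947 and 916 CPM in the controls and at 830 and 852 CPM in the Ythdf2-vKO libraries (log2 fold change -0.15, SE 0.11), with the groups separated. Rsph9, another head protein, was at 109 and 119 CPM and at 86.3 and 102 CPM (log2 fold change -0.27, SE 0.13), also separated. Rsph6a and Rsph4a are paralogous head proteins, the former known from sperm and the latter from motile cilia of other tissues. Rsph6a averaged 102 CPM per kb and Rsph4a 0.0484, with Rsph4a counts of 3, 14, 0 and 3, in the order of both controls and then both Ythdf2-vKO libraries. Rsph6a was at 288 and 188 CPM and at 252 and 229 CPM (log2 fold change 0.02, SE 0.18), and its groups overlapped. Rsph3a and Rsph3b, stalk proteins 99.2% identical over 1823 bases, cannot be separated with certainty. They had log2 fold changes of -0.26 and -0.16.

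Of the 3 nexin-dynein regulatory complex genes, Drc1 was at 188 and 187 CPM in the controls and at 164 and 173 CPM in the Ythdf2-vKO libraries (log2 fold change -0.16, SE 0.12). Drc3 had a log2 fold change of -0.17 (SE 0.13), and the groups of both genes were separated. Drc7 was at 103 and 89.7 CPM and at 90.2 and 89.9 CPM (log2 fold change -0.09, SE 0.13). The 5 tektins, filament proteins of the doublets, had a median of -0.09, and in all 5 the groups overlapped. Tekt1 was at 395 and 461 CPM and at 348 and 417 CPM (log2 fold change -0.16, SE 0.13). Tekt3 and Tekt4 were at -0.15 (SE 0.13) and -0.09 (SE 0.14), and Tekt2 and Tekt5 at 0.03 (SE 0.12) and 0.12 (SE 0.12). Replicate 2 was above replicate 1 in both groups for 4 of the 5.

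The Cfap genes, a mixed family of doublet, tether and central-apparatus proteins, were lower in 28 of 31, with a median log2 fold change of -0.17. Both Ythdf2-vKO libraries lay below both controls in 18 of them and above both in 1 (22.6% and 22.7% of all genes, or 27.4% and 21% of those of at least 10 CPM), with 0 called. Cfap57 was at 367 and 377 CPM in the controls and at 277 and 296 CPM in the Ythdf2-vKO libraries (log2 fold change -0.38, SE 0.12; adjusted p = 0.18, edgeR's quasi-likelihood test). Cfap70, a protein tied to outer arms, was at 231 and 241 CPM and at 173 and 190 CPM (log2 fold change -0.38, SE 0.12; adjusted p = 0.193, edgeR's quasi-likelihood test). Cfap97 was at 542 and 535 CPM and at 409 and 426 CPM (log2 fold change -0.37, SE 0.11; adjusted p = 0.184, edgeR's quasi-likelihood test). In these 3 genes the controls agreed to within a few percent and both Ythdf2-vKO libraries lay well below them.

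Cfap43 and Cfap44, which tether an inner arm dynein to the doublet, were separated as well. Cfap43 was at 459 and 424 CPM in the controls and at 366 and 345 CPM in the Ythdf2-vKO libraries (log2 fold change -0.31, SE 0.12). Cfap44 was at 134 and 106 CPM and at 99.8 and 91.4 CPM (log2 fold change -0.33, SE 0.14). Cfap69, a central-apparatus protein of the sperm tail, was at 395 and 397 CPM and at 331 and 344 CPM (log2 fold change -0.23, SE 0.11). Cfap206, a radial spoke protein with the second highest level per length, was at 803 and 846 CPM and at 692 and 725 CPM (log2 fold change -0.22, SE 0.11). Cfap36 was at 442 and 504 CPM and at 402 and 440 CPM (log2 fold change -0.17, SE 0.12). Cfap77, a protein of the doublet lumen, was the exception in direction with separated groups, at 15.4 and 11.5 CPM and at 17 and 18.9 CPM (log2 fold change 0.42, SE 0.18; adjusted p = 0.314, edgeR's quasi-likelihood test).

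**Figure D3:**
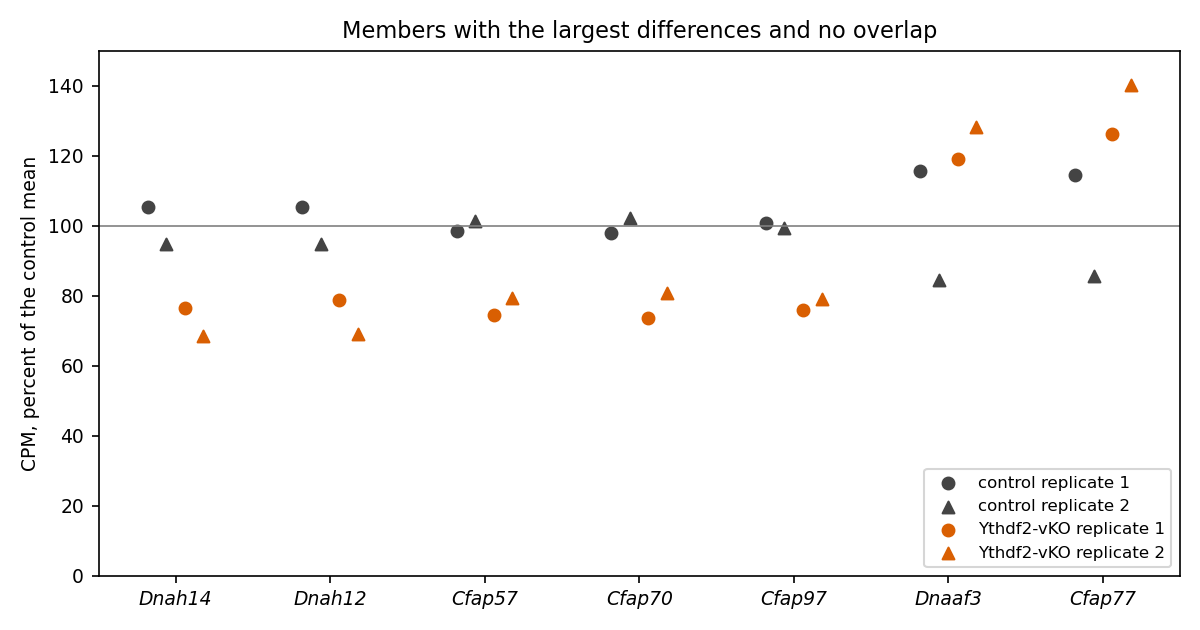
CPM of the members with the largest differences and separated groups, as a percentage of the gene's control mean, with 1 point per library. Dnah14, Dnah12, Cfap57, Cfap70 and Cfap97 lie below both controls in both Ythdf2-vKO libraries; Dnaaf3 and Cfap77 lie above both, with their control replicates far apart.

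Differences between replicates were as large as those between labels for many members, as they were for many of all genes tested. Control replicate 1 was above control replicate 2 in 14 of 15 heavy chains, Ythdf2-vKO replicate 1 was above replicate 2 in 14 of 15, and both held for 13, against 29.3% of all genes. The 9 inner arm heavy chains were among these 13. Over the 68 protein-coding members, the log2 ratio of replicate 1 to replicate 2 had a Spearman correlation with transcript length of 0.51 in the controls and 0.56 in the Ythdf2-vKO libraries (0.18 and 0.27 over all genes of at least 1 CPM). These correlations are over genes of the same libraries, which are not independent replicates.

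**Figure D4:**
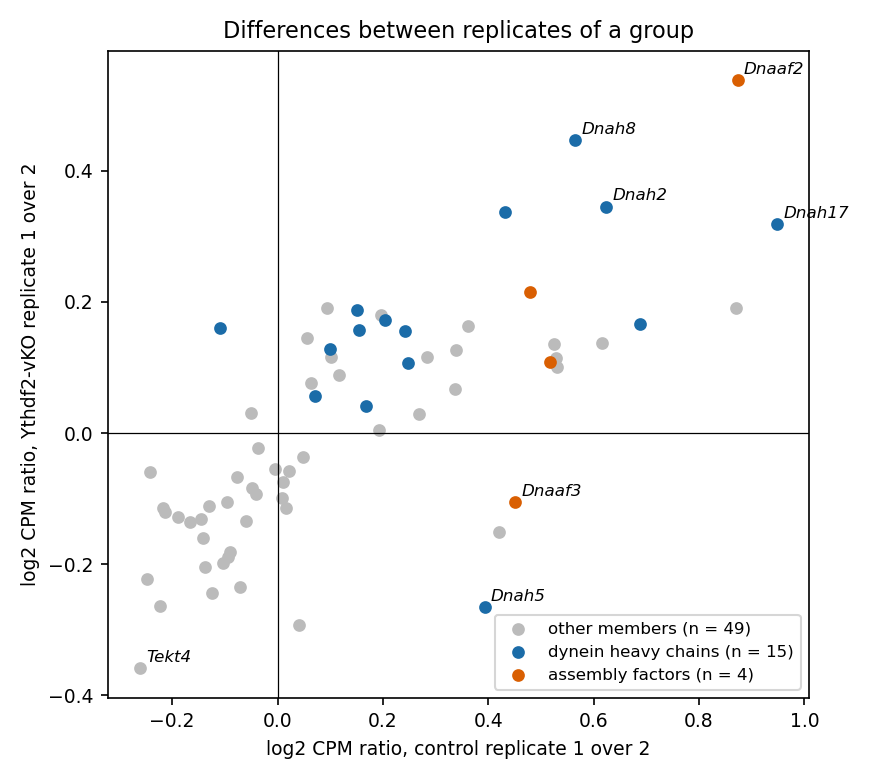
Log2 CPM ratio of replicate 1 to replicate 2 in the control libraries (horizontal axis) and in the Ythdf2-vKO libraries (vertical axis) for the 68 protein-coding members tested, 1 point per gene. Most heavy chains, with Dnah17, Dnah8 and Dnah2 far out, lie above 0 on both axes, as does Dnaaf2; Tekt4 lies below 0 on both.

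The calls depended on the control libraries. Without control replicate 1, edgeR's quasi-likelihood test called 7 members higher (Dnaaf1, Dnaaf2, Dnaaf3, Dnah17, Rsph6a, Cfap65 and Cfap77, where 4.72% of all genes were called higher) and 6 lower (Dnah12, Dnah14, Cfap57, Cfap70, Cfap97 and Cfap161, where 2.09% were). Without control replicate 2 it called 0 higher and 11 lower (Dnah2, Dnah7a, Dnah7b, Dnah8, Dnah12, Dnah14, Cfap43, Cfap44, Cfap54, Cfap57 and Cfap97, where 2.39% of all genes were called lower). Dnah12, Dnah14, Cfap57 and Cfap97 were called lower in both of these leave-outs, whereas Dnah17 and Rsph6a were called higher without control replicate 1 and had log2 fold changes of -0.31 and -0.26 without control replicate 2. Leaving out Ythdf2-vKO replicate 1 or replicate 2 gave a member median log2 fold change of -0.14 and -0.17, in that order. Leaving out each library in turn, 42 of the 69 members kept their direction, 38 of them lower and 4 higher. The share of all genes that kept theirs was not taken. With 1 library left in a group, that library is assumed to vary as the other group does.

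Base composition varied along with these differences. The members' transcripts hold 40.9% to 59.6% G and C. The 23 members lowest in GC were all lower in the Ythdf2-vKO libraries (median log2 fold change -0.25), as were 21 of the middle 22 (-0.16), while of the 23 highest 12 were lower and 11 higher (-0.02). Over the 68 protein-coding members the Spearman correlation of log2 fold change with GC content was 0.61, and over all genes of at least 1 CPM 0.29. With a smooth GC offset in the fit, 63 of the 69 members were below 0, the median was -0.18 and 0 were called, while the medians of the 3 GC groups became -0.20, -0.18 and -0.11. The part of GC content or of its cause in the members' differences was not tested beyond this offset.

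**Figure D5:**
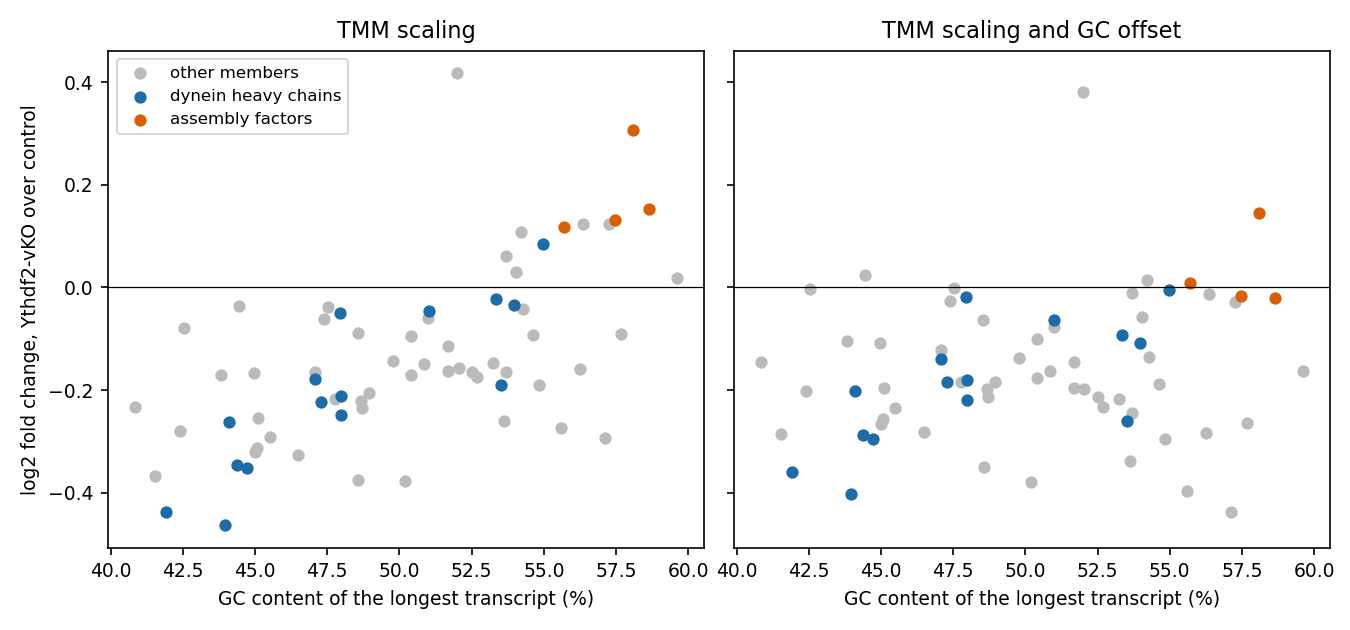
Log2 fold change of the 68 protein-coding members tested (vertical axis) against the GC content of the longest transcript (horizontal axis), with TMM scaling alone (left) and with a GC offset added (right), 1 point per gene. On the left the assembly factors named Dnaaf sit high at the GC-rich end and the heavy chains descend toward the GC-poor end. On the right the slope is smaller.

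Promoters were examined because most members lay on the same side and because RFX factors, which bind the X-box, are known regulators of ciliary genes. RefSeq (GRCm38.p6) gave start sites for 57 of the 70 members, with 64 windows from 250 bases before to 50 bases after a start. The pattern searched was GTTNCC, then any 2 bases, then the reverse complement of that arm, GGNAAC. It reads the same on both strands and was counted where at least 9 of its 10 fixed letters matched. It was present in 10 of the 64 member windows (15.6%) and in 842 of 32851 windows of all genes (2.56%). The match with all 10 letters began 188 bases before the RefSeq start of Cfap298, which is inside the gene as GENCODE M21 annotates it. As examples of matches in members lower with separated groups, and in Dnaaf2, whose groups overlap, the following are the 100 bases upstream of the RefSeq starts of Cfap206 (chr4:34730207-34730306, minus strand), Cfap44 (chr16:44394699-44394798, plus strand), Drc1 (chr5:30281293-30281392, plus strand) and Dnaaf2 (chr12:69198430-69198529, minus strand), written 5′ to 3′ on the gene's strand with the X-box match in capitals.
Cfap206: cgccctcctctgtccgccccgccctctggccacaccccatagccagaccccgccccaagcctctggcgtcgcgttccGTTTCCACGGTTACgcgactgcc
Cfap44: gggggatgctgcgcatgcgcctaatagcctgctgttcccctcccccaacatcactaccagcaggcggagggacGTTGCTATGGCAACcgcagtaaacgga
Drc1: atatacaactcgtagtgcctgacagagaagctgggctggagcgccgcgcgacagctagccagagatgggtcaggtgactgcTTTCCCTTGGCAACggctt
Dnaaf2: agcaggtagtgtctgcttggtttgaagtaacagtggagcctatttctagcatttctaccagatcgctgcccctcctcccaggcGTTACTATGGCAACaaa
The other windows with a match belonged to Cfap45, Cfap61, Cfap97d2, Dnaaf5 and Tekt4. Among the 10 genes with a match, the groups were separated and lower in Cfap44, Cfap45, Cfap206, Cfap298 and Drc1, and overlapped in the other 5. Over all members, 33 of the 69 tested were separated and lower, against 22.6% of all genes. A link between a match and the direction of a member was not tested. A match describes letters in a window and not a bound site.

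Other genes of the axoneme, from a list of 71 symbols, lay mostly on the same side as the members. Of the 66 tested, 58 were lower and 8 higher, with a median of -0.20. Called genes were 0. An unadjusted p under 0.05 was found in 22, all of them lower, against 6.47% of all genes. In 42 both Ythdf2-vKO libraries lay below both controls, against 22.6% of all genes and 27.4% of those of at least 10 CPM. Ccdc38 had the smallest adjusted p, at 591 and 561 CPM in the controls and 394 and 395 CPM in the Ythdf2-vKO libraries (log2 fold change -0.55, SE 0.11; adjusted p = 0.0659, edgeR's quasi-likelihood test). Genes of intraflagellar transport and the BBSome, which carry cargo along growing cilia, were lower in 28 of 37 (median -0.12, 0 called, 3 at an unadjusted p under 0.05). Over all genes, 14.1% had such a p in either direction, which is the background for this list and the lists that follow. Cytoplasmic dynein and dynactin genes, a related motor that works outside the axoneme, were lower in 15 of 21 (median -0.07, 0 called, 3 at an unadjusted p under 0.05). Transcription regulators of cilia, RFX factors included, were higher in 9 of the 10 tested (median 0.21, 0 called, 2 at an unadjusted p under 0.05). The groups were separated and higher in 2 of the 10, against 22.7% of all genes. Control replicate 1 was above control replicate 2 in 9 of the 10. The lower gene was Rfx3, itself an RFX factor (log2 fold change -0.27, SE 0.13), with the groups separated. Rfx2, an RFX factor known from spermatids, was at 471 and 319 CPM and at 454 and 442 CPM, with overlap.

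Markers of elongating spermatids and of spermatocytes were also lower in most cases. Elongating spermatid markers were lower in 11 of 12 (median -0.29, 0 called), with a summed level of 13663 and 11409 CPM in the controls and 10630 and 10970 CPM in the Ythdf2-vKO libraries. In all 12 of these markers control replicate 1 was above control replicate 2. Spermatocyte markers were lower in 11 of 13 (median -0.13) and round spermatid markers in 6 of 10 (median -0.03), with 0 called in either. The round spermatid share was close to the 53.8% of genes of at least 10 CPM that were below 0. Of those 10 markers, 1 was separated and lower and 2 were separated and higher. Sertoli cell markers were higher in 11 of 11 (median 0.44), with Wt1 called, and their sum was 882 and 948 CPM against 1251 and 1098 CPM. Spermatogonia markers were higher in 10 of 12 (median 0.25), Leydig cell markers in 7 of 8 (0.38), endothelial markers in 6 of 7 (0.43), erythrocyte markers in 3 of 3 (0.80) and macrophage markers in 6 of 7 (0.06), with 0 called in these lists. Peritubular myoid cell markers were higher in 3 of 7 (-0.05), also with 0 called. Nanos3 of the spermatogonia list, Pecam1 and Tie1 of the endothelial list, and Hba-a2 and Hbb-bt of the erythrocyte list averaged under 1 CPM. Hba-a2 was not tested. In bulk testis, fewer cells of a type and less RNA per cell cannot be told apart. Of 15 markers of rete testis, efferent duct and multiciliated cells, whose cilia use the same gene families, 9 were tested and 5 were lower (median -0.05). Their sum, mostly Deup1, was 415 and 417 CPM in the controls and 335 and 367 CPM in the Ythdf2-vKO libraries, while Cdh1, Aqp1, Krt19, Krt7 and Tmem212 were under 1 CPM. The part of cell composition in the members' differences was not tested.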

How the data were processed

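RNA-seq of whole testis was analysed from 1 deposited table. Per the file headers it holds, for each gene, read counts in 4 libraries and the authors' DESeq2 output: a mean of normalised counts (signal over all libraries, by the authors), the log2 fold change and its error, a Wald statistic (a score, deposited but not used here), and p-values and adjusted p-values. HISAT2 2.1.0 and HTSeq 0.6.1p1 are named in the submitters' processing notes; genome build, annotation and strand setting are not given in the sources used here. The lowest sum of counts over the 4 libraries was 10. Of 25265 gene IDs, 25261 matched GENCODE M21 (GRCm38), which supplied coordinates, the longest transcript, GC content and overlaps.

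Counts were tested with edgeR 4.0.16 (TMM, filterByExpr, robust quasi-likelihood F test, Benjamini-Hochberg over 21132 genes, groups only). Log2 fold changes are Ythdf2-vKO over control. The depth of each library, 24862518 to 29561182 counts, makes counting error small except in the lowest members. The procedure was tested on simulated data with planted changes larger than that of any tested member. The simulation thus did not cover differences of the members' size. Alternatives were DESeq2 1.42.0, other scalings and filters, GC and length offsets, a replicate block and leaving out each library. Transcript similarity came from BLAST 2.17.0.

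Members, role classes, pathway and marker lists were chosen with earlier results of these data known. Named members were those called and the 5 with the largest differences of each sign and separated groups at 1 CPM or more (only 2 were higher). The 5 highest by CPM and by CPM per kb, and fixed members of known role, were also named. Dnah3, Dnah6, Dnah7, Dnah10, Rsph3, Dnal4, Drc3, Cfap54, Cfap65, Cfap161, Cfap298, Cfap300, Dnaaf5 and the other genes with an X-box match were chosen after their values were seen. The X-box search and the GC groups were likewise chosen after seeing the data.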

Additional observations from a re-analysis of the deposited data

How the results depend on the processing

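Direction was below 0 for 47 to 63 of the members under every setting, and the member median stayed between -0.19 and -0.10; it moved by library totals alone, to -0.0975, where the median of all genes was 0.067. Calls over all genes were 83 and moved to 218 with library totals alone, 156 with a GC offset and 217 with DESeq2's Wald test, and ranged from 35 to 1512 leaving out each library; the share of them higher was 71.1%, and 83.0% with library totals alone, 57.1% with the GC offset, 48.4% with GC offset and replicate block, 51.4% without control replicate 2 and 85.7% without Ythdf2-vKO replicate 1. Members called ranged from 0 to 7 higher and 0 to 11 lower leaving out each library.

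Both groups number their replicates 1 and 2, with no statement that equal numbers pair libraries. Log ratios of replicate 1 to 2 correlated between groups at a Spearman value of 0.73 in the members and 0.17 in all genes. A replicate block called 1017 genes and 5 members, all lower, where 1.85% of all genes were called lower (Dnah12, Dnah14, Dnah7a, Cfap57 and Cfap70); with a GC offset it called 593 and 2, also lower, against 1.45% (Dnah14 and Rsph9), and with a gene length offset 506 and 2, also lower, against 1.0% (Dnah12 and Dnah14).

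Of 33 named members, 13 changed sign under at least 1 setting; the cause was not tested. With the GC offset Dnaaf1 was -0.0166, Dnah17 -0.0053, Dnal1 0.024, Rsph6a -0.1632, Tekt2 -0.0572 and Tekt5 -0.013; with the replicate block added Dnaaf1 was -0.0073, Dnal1 0.0237, Rsph6a -0.1518, Tekt2 -0.0581 and Tekt5 -0.0147. With library totals alone Dnah1 was 0.0502, Dnah9 0.0209 and Dnal1 0.0271, and with the length offset Rsph6a was -0.0064. Leaving out each library, Dnah8 ranged from -0.5033 to 0.0529, Dnaaf1 from -0.1032 to 0.4062, Dnah1 from -0.2228 to 0.2018, Dnah2 from -0.4684 to 0.1473, Dnah5 from -0.3656 to 0.0189, Dnah9 from -0.1288 to 0.0314, Dnah17 from -0.3127 to 0.6273, Dnaaf2 from -0.2589 to 0.606, Rsph6a from -0.2561 to 0.3525, Tekt2 from -0.0651 to 0.1182 and Tekt4 from -0.2825 to 0.0783. Depth limited Rsph4a and Dnah2os, which had 0 to 19 counts per library.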
